A study of Mus musculus with 16 samples.

Results

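The 7 genes described here encode the chains of the fibrillar collagens I, III, V and XI, taken by symbol from a list: Col1a1, Col1a2, Col3a1, Col5a1, Col5a2, Col5a3 and Col11a1. They are 7 of the 24982 entries in the count table, and all 7 were among the 13775 genes with enough counts to be tested. The values come from total RNA of the left ventricle, 1 library for each of 16 C57BL/6 mice. All mice are labelled Tln2-null, a deletion that the comparison group therefore carries too, and all received tamoxifen intraperitoneally for 5 days and then, after 2 weeks, angiotensin II (AngII) from an osmotic pump over 8 weeks. The 2 groups were Tln2-null mice (8 mice, 4 males and 4 females) and Tln2-null; Tln1-specific CF knockout mice (8 mice, 4 males and 4 females), called knockout mice below, in which CF, going by the series title, stands for cardiac fibroblasts. Tln1 and Tln2 encode talins, adaptors between integrins and actin. The labels do not state the age of the mice, the Cre driver or the exons removed, and there was no group without AngII, without tamoxifen or with intact Tln2.

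Fibrillar collagens are made as procollagen chains that wind into a helix in the endoplasmic reticulum, are trimmed outside the cell and assemble into crosslinked fibrils. Collagen I, built from the chains of Col1a1 and Col1a2, gives the heart's matrix its stiffness, and collagen III, built from the Col3a1 chain alone, is mixed into the same fibrils. Collagens V and XI are minor chains inside the fibril that start its assembly and limit its diameter; collagen XI is best known from cartilage. In the heart these transcripts come mainly from fibroblasts, and AngII is widely used to raise them.

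**Figure D1:**
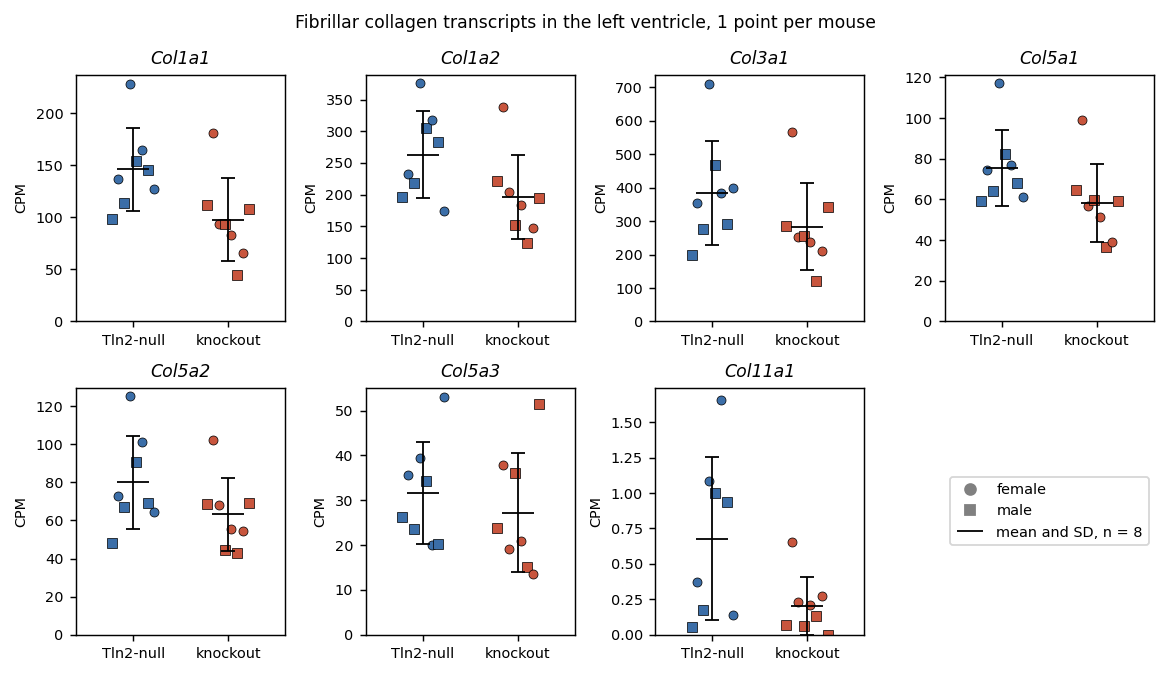
Counts per 1000000 library counts (CPM, y axis, from 0) of each chain in every mouse, with circles for females and squares for males, and the mean and SD of each group of 8 mice. The knockout points lie lower on average in all 7 panels, the groups overlap in all 7, and 1 knockout female (replicate 2) stands at the top of the knockout group in 6 panels.

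The chains differ in the DNA before their RefSeq starts, shown because 5 of the 7 varied together from mouse to mouse. RefSeq promoter entries of build GRCm38.p6 were found for 5 of the 7 genes, not for Col1a1 or Col5a2. These are not the same 5 genes. Col1a2, Col3a1 and Col5a1 are among those that varied together, and Col5a3 and Col11a1 are not. The 250 bases before each RefSeq start were searched on both strands for CCAAT (the CCAAT box), GGGCGG (the GC box bound by Sp1), CAGAC (a SMAD box) and TATAAA (the TATA box), none of which overlapped another. Each is shown 5′ to 3′ on the gene's strand, with these motifs, or their reverse complements, in capitals. For Col1a2 only part of the window is shown, with 127 bases left out, since GENCODE places a transcript start 125 bases before the RefSeq start. The GENCODE gene model of Col1a2 begins earlier still, at 4504814, so the printed stretch lies inside that model.
Col1a2, plus strand, chr6:4505370-4505492: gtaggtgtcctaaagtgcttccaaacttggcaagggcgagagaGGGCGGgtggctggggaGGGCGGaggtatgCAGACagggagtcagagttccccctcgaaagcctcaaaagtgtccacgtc
Col3a1, plus strand, chr1:45311288-45311537: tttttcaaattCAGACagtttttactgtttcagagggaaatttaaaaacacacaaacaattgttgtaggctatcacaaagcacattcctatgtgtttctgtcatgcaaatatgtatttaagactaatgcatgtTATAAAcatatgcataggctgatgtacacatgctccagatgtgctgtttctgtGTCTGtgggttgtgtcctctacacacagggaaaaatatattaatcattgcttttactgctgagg
Col5a1, plus strand, chr2:27886175-27886424: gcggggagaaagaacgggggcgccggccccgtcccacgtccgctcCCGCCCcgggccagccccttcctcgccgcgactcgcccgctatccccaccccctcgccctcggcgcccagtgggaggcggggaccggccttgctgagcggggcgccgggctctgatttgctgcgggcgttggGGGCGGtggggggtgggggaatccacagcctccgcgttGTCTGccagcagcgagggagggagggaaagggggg
Col5a3, minus strand, chr9:20815068-20815317: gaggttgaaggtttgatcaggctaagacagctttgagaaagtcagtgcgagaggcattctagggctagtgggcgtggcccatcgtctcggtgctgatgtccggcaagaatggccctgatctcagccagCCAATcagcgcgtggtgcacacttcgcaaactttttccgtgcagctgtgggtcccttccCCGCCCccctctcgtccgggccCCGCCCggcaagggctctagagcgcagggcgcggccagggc
Col11a1, plus strand, chr3:114030290-114030539: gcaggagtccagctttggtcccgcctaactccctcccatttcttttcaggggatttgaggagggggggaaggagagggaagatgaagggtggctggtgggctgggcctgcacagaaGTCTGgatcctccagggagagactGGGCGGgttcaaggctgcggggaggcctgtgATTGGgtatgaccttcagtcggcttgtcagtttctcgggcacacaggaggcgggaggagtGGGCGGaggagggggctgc

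The Col3a1 window stood apart in base composition, with 35.2 percent G and C against 62.0 percent for Col1a2 (all 250 bases), 62.4 percent for Col11a1, 62.8 percent for Col5a3 and 76.4 percent for Col5a1. It held 2 SMAD boxes and a TATA box and no GC box, while the other 4 windows held 2 GC boxes each. A CCAAT box was in the windows of Col1a2, Col5a3 and Col11a1, that of Col1a2 in the part not printed, and a SMAD box in those of Col1a2, Col3a1, Col5a1 and Col11a1. Among all 32851 promoter entries, 33.8 percent held a CCAAT box, 32.7 percent a GC box, 42.2 percent a SMAD box and 12.4 percent a TATA box in the same 250 bases. These matches are descriptions of letters, not of bound sites.

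By the GENCODE M21 gene models, Col3a1 (chromosome 1, 45311538 to 45349706, plus strand) and Col5a2 (chromosome 1, 45374321 to 45503282, minus strand) are neighbours, 24614 bases apart on opposite strands. Col1a1 lies on chromosome 11 (94936224 to 94953042), Col1a2 on chromosome 6 (4504814 to 4541544) and Col5a1 on chromosome 2 (27886425 to 28039514), all on the plus strand. Col5a3 lies on chromosome 9 (20770050 to 20815067, minus strand) and Col11a1 on chromosome 3 (114030540 to 114220718, plus strand). Col5a1 shares exon bases with 2 annotated genes of the opposite strand and Col3a1 with 1 of its own strand, Gm47302, and no source used here says whether strand was used in counting. None of the 3 is an entry of the count table.

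Library totals ran from 11161766 to 19221673 counts, so 3 counts, the limit that a count of 0 allows, were worth 0.151 to 0.268 CPM, covering counting error only. Tln1 ran from 251 to 322 CPM (median 289) in Tln2-null and from 221 to 323 CPM (median 280) in knockout mice, and Tln2 from 55.6 to 76.8 and from 62.4 to 70.4 CPM. Tln1 thus differed by -0.08 ± 0.07 on the log2 scale (SE; edgeR adjusted p = 0.942) and Tln2 by 0.01 ± 0.06 (adjusted p = 0.997). The counts pool all exons and all cells of the ventricle, so they are no direct check of either deletion. The tissue carried ventricular muscle genes at high levels (the cardiomyocyte list summed to 34510 to 40520 CPM) and the atrial genes Myl7 and Sln at means of 0.164 CPM or below. The remaining genes of the 4-gene atrial list were higher. Nppa averaged 1060 ± 460 against 789 ± 304 CPM, and Myl4 3.28 ± 1.1 against 2.68 ± 0.83 CPM (SD, knockout mice second). Of the 8 libraries labelled female, 4 had summed Y-linked reads at 1.11 to 2.88 percent of the male mean, against 0.175 to 0.391 percent in the other females. These are Tln2-null replicate 4 and knockout replicates 3, 5 and 7. The clock gene Arntl reached 27.1 CPM in knockout replicate 8 and 28.4 CPM in Tln2-null replicate 8, while no other mouse lay outside 3.66 to 8.44 CPM, and Tln2-null replicate 5 had 85.9 CPM of the heat shock gene Hspa1a. Genotype differences of the chains over both sexes are given below with and without these libraries. Sex differences, ratios, correlations and the whole list of collagen-making genes are given without some of them. Levels per length, single roles and marker lists are given with all libraries only.

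Levels were compared between chains per kilobase of annotated exon. In Tln2-null mice Col3a1 stood at 39.2 ± 15.8 CPM per kilobase, Col1a1 at 22.3 ± 6.02, Col1a2 at 21.2 ± 5.54, Col5a1 at 8.91 ± 2.20, Col5a2 at 8.34 ± 2.56, Col5a3 at 4.64 ± 1.67 and Col11a1 at 0.0532 ± 0.0452 (SD, n = 8). Col3a1 was the highest and Col11a1 the lowest chain in all 16 mice, and Col5a3 was the sixth in 13. The neighbours Col1a1 and Col1a2 lay within their spread, Col1a2 being the higher in 10 of 16 mice, and so did Col5a1 and Col5a2, with Col5a1 higher in 11.

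The order depends on the length used, because the exons of all Col1a2 models together span 12426 bases and its main transcript 5348. Over the transcript with the longest coding sequence, a length chosen after seeing the data, Col1a2 stood at 49.2 ± 12.9 CPM per kilobase and Col1a1 at 24.7 ± 6.66, and Col1a2 was higher in 16 of 16 mice. Col5a2 then stood at 12.1 ± 3.70 and Col5a1 at 8.99 ± 2.22, and Col5a1 was higher in 1 mouse. Col3a1, at 69.2 ± 27.8, was then the highest in 13 of 16 mice, and Col11a1 was still the lowest in all 16. The coding length, planned beside the exon length, gave the same order. Per coding kilobase, Col1a2 stood at 63.9 and Col1a1 at 33.5 CPM in Tln2-null mice. Col1a2 was then higher than Col1a1 in 16 of 16 mice, Col5a1 higher than Col5a2 in 1, and Col3a1 the highest in 13.

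As shares of the summed level of the 7 chains per exon kilobase, Col3a1 made up 36.7 ± 4.55 percent in Tln2-null and 36.7 ± 3.19 percent in knockout mice (SD, n = 8 each). Col1a1 made up 21.5 ± 1.36 against 19.2 ± 1.21 percent and Col1a2 20.6 ± 3.26 against 20.9 ± 2.49 percent. The exon length of Col1a2, 12426 bases, weighs on these shares as on the order above. The near-equal shares of Col1a1 and Col1a2 hold for exon length only, and shares over the other lengths were not computed. Over the 16 mice, Col1a1 ran from 17.1 to 23.9 percent and Col5a3 from 2.62 to 8.52 percent, so that the share of Col5a3 was the more variable for its size.

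The comparison of the genotypes asks how the fibril-forming chains stand in AngII-treated ventricles when fibroblasts also lack Tln1. All 7 chains were lower on average in knockout mice, with log2 fold changes of -0.21 to -1.69, and none passed the test over all genes (edgeR quasi-likelihood test, Benjamini-Hochberg adjusted p from 0.788 to 0.956). That count of 0 of 7 stands beside 0 percent of all 13775 genes. DESeq2 called 0.123 percent and limma-voom 0.0799 percent of all genes, and 0 of 7 chains each. At an unadjusted p under 0.05 there were 4 of 7 chains (Col1a1, Col1a2, Col5a1 and Col11a1), all lower, against 5.08 percent of all genes at that threshold, 3.17 percent being lower in the knockout. DESeq2 gave 5 chains at that threshold (5.13 percent of all genes), limma-voom 6 (7.85 percent), and edgeR with the number in the sample title as a covariate 2, Col1a1 and Col11a1 (4.53 percent). A mean below that of the Tln2-null group was the case for 51.2 percent of all genes. The counts of chains are not counts of independent results, since 5 of the chains varied together among these mice, as given below. In bulk tissue, fewer cells of a type and less RNA per cell cannot be told apart. The p-values set each difference against the spread between these mice, taken as independent. Nothing in the labels names litters or batches, so the tests could not account for any.

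Col1a1, the more numerous chain of the collagen I molecule, ran from 98.1 to 228 CPM (median 141) in Tln2-null and from 45.0 to 181 CPM (median 93.6) in knockout mice. The knockout mice lay mostly below the others, 7 of 8 under the Tln2-null mean and 5 of 8 under the lowest Tln2-null mouse, and the groups overlapped through knockout replicates 1, 2 and 8. The means were 146 ± 39.5 and 97.9 ± 40.1 CPM (SD, n = 8 each). On the log2 scale the knockout stood at -0.57 ± 0.21 from Tln2-null (SE; edgeR adjusted p = 0.823).

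Col1a2, the partner chain of collagen I, ran from 175 to 377 CPM (median 257) in Tln2-null and from 123 to 338 CPM (median 189) in knockout mice. Again 7 of 8 knockout mice were under the Tln2-null mean, but only 3 were under its lowest mouse, Tln2-null replicate 8. The means were 263 ± 68.9 and 196 ± 66.1 CPM, and the log2 fold change was -0.43 ± 0.18 (SE; edgeR adjusted p = 0.926).

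Col3a1, the single chain of collagen III, was the most variable of the 5 abundant chains, from 199 to 709 CPM (median 369) in Tln2-null and from 120 to 567 CPM (median 254) in knockout mice. The range within each genotype was wider than the distance between their means, 385 ± 155 and 284 ± 131 CPM, and 7 of 8 knockout mice were under the Tln2-null mean. The log2 fold change was -0.42 ± 0.24 (SE; edgeR adjusted p = 0.935). Its highest mouse, Tln2-null replicate 4, had 5.90 times the level of its lowest, knockout replicate 6.

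The collagen V chains differed among themselves. Col5a1, the chain found in most collagen V, ran from 59.5 to 117 CPM (median 71.4) in Tln2-null and from 36.7 to 99.1 CPM (median 57.8) in knockout mice. All but 1 of the knockout mice were under the Tln2-null mean and 5 under its lowest mouse, with means of 75.6 ± 18.7 and 58.3 ± 19.3 CPM and a log2 difference of -0.37 ± 0.17 (SE, with an edgeR adjusted p of 0.935). Col5a2, its usual partner, ran from 48.3 to 126 CPM (median 71.1) and from 42.8 to 102 CPM (median 61.9), with means of 80.0 ± 24.5 and 63.2 ± 18.97 CPM. Here 7 of 8 knockout mice were under the Tln2-null mean and 2 under its lowest mouse, and the log2 fold change was -0.34 ± 0.17 (SE; edgeR adjusted p = 0.935).

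Col5a3, the least abundant collagen V chain, ran from 20.0 to 53.1 CPM (median 30.3) in Tln2-null and from 13.5 to 51.5 CPM (median 22.3) in knockout mice. The groups were mixed, with 5 of 8 knockout mice under the Tln2-null mean, means of 31.6 ± 11.4 and 27.2 ± 13.3 CPM, and a log2 difference of -0.21 ± 0.27 (SE, with an edgeR adjusted p of 0.956). The top mouse of each genotype was the library whose clock genes stand apart, replicate 8 in both.

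Col11a1, a chain of the cartilage collagen XI, was close to the detection limit: all 16 libraries together held 124 counts. Tln2-null replicates 1 to 8 had 1, 7, 3, 17, 18, 29, 18 and 2 counts, and knockout replicates 1 to 8 had 1, 13, 4, 1, 4, 2, 4 and 0 counts. Counts of 10 or more were found in 4 Tln2-null mice and 1 knockout mouse, and 7 of the 16 libraries, 3 Tln2-null and 4 knockout, were at or under 3 counts. Summed over 8 mice, this was 95 against 29 counts. The means were 0.678 ± 0.577 and 0.205 ± 0.205 CPM, all 8 knockout mice were under the Tln2-null mean, and the log2 difference of -1.69 ± 0.59 (SE, with an edgeR adjusted p of 0.788) was the largest and least precise of the 7.

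Across the chains, 6 of 7 had at least 7 of 8 knockout mice below the Tln2-null mean, which was the case for 10.1 percent of all genes. The chains are not separate observations, since pairs among Col1a1, Col1a2, Col3a1, Col5a1 and Col5a2 had r of 0.839 to 0.965 over the same mice. The groups overlapped for all 7; 0.0436 percent of all genes had no overlap. Replicates of one genotype were spread widely: the SD of log2 CPM among Tln2-null mice was 0.32 to 0.55 for the 6 abundant chains, against a median of 0.18 over all genes.

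**Figure D2:**
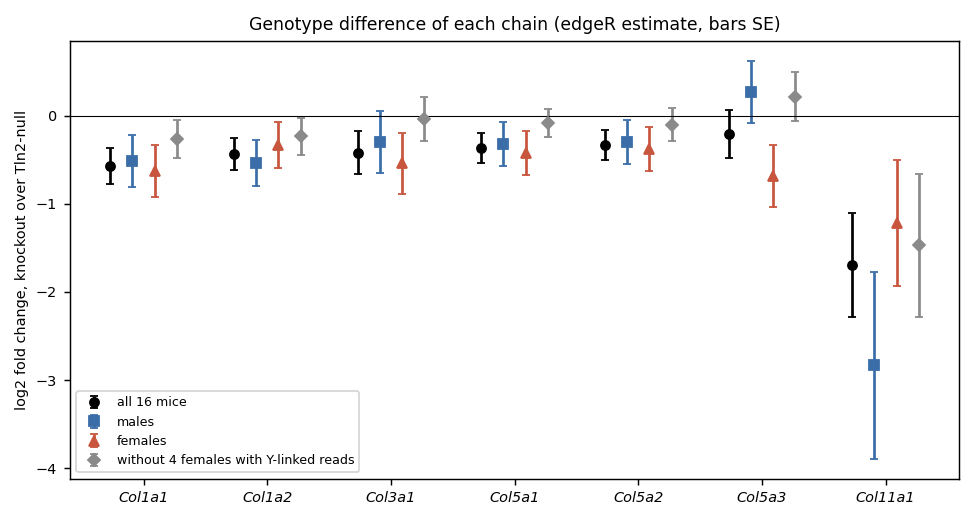
Log2 fold change of knockout over Tln2-null mice (y axis) for each chain from edgeR, with its SE as bars, for all 16 mice, within males, within females and without the 4 females that carry Y-linked reads. The estimates for all mice lie below 0 for all 7 chains, and those without the 4 females (grey) lie between -0.26 and 0.22 for the chains other than Col11a1.

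The lower means of the knockout rested in part on the females with Y-linked reads. Without these 4 libraries, which include the mouse highest in collagen (Tln2-null replicate 4) and leave 1 knockout female (replicate 2, the highest knockout mouse), Col1a1 was at -0.26, Col1a2 at -0.23, Col3a1 at -0.04, Col5a1 at -0.08, Col5a2 at -0.10, Col5a3 at 0.22 and Col11a1 at -1.47 on the log2 scale. No chain then had an unadjusted p under 0.05 in edgeR, against 3.34 percent of all genes. Without both libraries whose clock genes stand apart, all 7 chains were lower, with log2 fold changes of -0.26 to -1.81, and 5 had an unadjusted p under 0.05, against 6.63 percent of all genes. Without Tln2-null replicate 5, the library with high Hspa1a, the 7 chains stood at -0.18 to -1.52, and 2 had an unadjusted p under 0.05, against 4.14 percent of all genes. With 1 library left out at a time, all 7 chains stayed below 0 in each of 16 fits, and 2 to 6 of them had an unadjusted p under 0.05. There were 2 without Tln2-null replicate 4, 5 or 7 or without knockout replicate 6 or 7, and 6 without knockout replicate 2.

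The sexes were compared because each genotype held 4 of each. Within males, 6 of 7 chains were lower in the knockout (51.5 percent of all genes), 1 of them, Col11a1, at an unadjusted p under 0.05 (6.07 percent of all genes, 3.30 percent lower), and 0 passed over all genes (0 percent). Within females all 7 were lower (50.0 percent of all genes), with 0 at an unadjusted p under 0.05 (3.31 percent) and 0 passing over all genes (0 percent; DESeq2 called 0.0145 percent of all genes and 0 chains). The count in females rests on knockout replicate 2: without it 6 of 7 chains had an unadjusted p under 0.05 within females, against 7.80 percent of all genes, and without 1 of the other libraries 0 to 2 did. With all libraries, limma-voom gave 4 within females, against 7.02 percent of all genes. The difference in males was -0.51 for Col1a1, -0.54 for Col1a2, -0.30 for Col3a1, -0.32 for Col5a1 and -0.30 for Col5a2 on the log2 scale. Without Tln2-null replicate 5, the library with high Hspa1a, the male difference was -0.03 for Col3a1 and -0.14 for Col5a2. In females it was -0.63, -0.33, -0.54, -0.42 and -0.38 in the same order. Tests of the difference between the sexes called 0 of 7 chains (0 percent of all genes), and 0 had an unadjusted p under 0.05 (4.27 percent).

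Among the 6 abundant chains, the genotype difference of Col5a3 was the one farthest apart between the sexes. Its males had 26.3, 23.5, 34.3 and 20.3 CPM in Tln2-null and 23.8, 36.1, 15.1 and 51.5 CPM in knockout mice, a log2 difference of 0.27 ± 0.35 (SE). Its females had 35.5, 39.5, 20.0 and 53.1 CPM in Tln2-null and 37.9, 19.04, 20.9 and 13.5 CPM in knockout mice, a log2 difference of -0.69 ± 0.35 (SE). In both sexes the groups overlapped, and the difference between the sexes, -0.96 ± 0.50 (SE; edgeR adjusted p = 0.98), did not pass. Without knockout replicate 8 the male difference was -0.06. Col11a1 had 1, 3, 18 and 18 counts in the Tln2-null males and 1, 1, 2 and 0 counts in the knockout males, a fitted log2 difference of -2.83 ± 1.06 (SE). In females, where the knockout mice had 13, 4, 4 and 4 counts, it was -1.22 ± 0.72 (SE).

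Averaged over the genotypes, the fitted level of all 7 chains was higher in females (log2 0.03 to 0.99, female over male), while 50.4 percent of all genes were lower in females. In knockout mice alone the mean of Col5a3 was 22.8 CPM in females and 31.6 CPM in males. In edgeR 0 of 7 passed, against 0.0871 percent of all genes, and in DESeq2 0 of 7 against 0.152 percent. At an unadjusted p under 0.05 there was Col5a2 alone, at 0.36 ± 0.17 (SE), against 3.69 percent of all genes, 2.04 percent higher in females. Without both libraries whose clock genes stand apart, 3 chains were under that threshold, against 4.26 percent of all genes. With 1 library left out at a time, 0 to 3 chains were, against 2.27 to 5.54 percent of all genes. In Tln2-null mice Col3a1 averaged 461 ± 166 CPM in females and 308 ± 113 CPM in males (SD, n = 4 each), and in knockout mice 317 ± 167 and 250 ± 93.9 CPM. The female groups hold both mice that stand highest, Tln2-null replicate 4 and knockout replicate 2. Knockout males and females of Col3a1 overlapped, as did those of Tln2-null mice.

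Ratios between chains within a library do not depend on how libraries were scaled, and they compare mice, not genes, since the chains differ in length. Of the 21 ratios, 0 passed after adjustment over the 21 and 2 had an unadjusted p under 0.05 (exact two-sided permutation of genotype within each sex, 4900 exchanges, smallest possible p 0.000408). The groups overlapped for all 21. Both of these ratios set a collagen V chain over Col1a1, and both were higher in knockout mice. They share Col1a1 and their highest mouse, knockout replicate 6, so they are not separate results. With 21 ratios tested, some can fall under 0.05 unadjusted by chance alone.

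Col5a1 over Col1a1 ran from -1.10 to -0.72 (median -0.93) in Tln2-null and from -0.88 to -0.29 (median -0.74) in knockout mice on the log2 scale. All 8 knockout mice were above the Tln2-null mean, and the highest, knockout replicate 6, was the mouse with least Col1a1. The means differed by 0.23, with -0.94 ± 0.13 against -0.71 ± 0.19 (SD), an exact permutation p of 0.00612 and an adjusted p of 0.129 over the 21 ratios. The difference was 0.23 in males and 0.23 in females. With 1 library left out at a time, the difference over all mice ran from 0.17 to 0.27. Without knockout replicate 8 it was 0.27 with an adjusted exact permutation p of 0.0429, so that this library decides the call.

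Col5a2 over Col1a1 ran from -1.07 to -0.70 (median -0.89) in Tln2-null and from -1.08 to -0.07 (median -0.62) in knockout mice. All but 1 knockout mouse, replicate 4, were above the Tln2-null mean. The difference of means was 0.30, with an exact permutation p of 0.0245 and an adjusted p of 0.257.

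For the collagen I pair, Col1a1 over Col1a2 ran from -1.0 to -0.46 (median -0.94) in Tln2-null and from -1.45 to -0.70 (median -1.06) in knockout mice. The means were -0.85 ± 0.19 and -1.04 ± 0.23 (SD), a difference of -0.19 whose adjusted exact permutation p was 0.353. The ends of the range were Tln2-null replicate 8, with least Col1a2 of its group, and knockout replicate 6. Col3a1 over Col1a1, the ratio of collagen III to collagen I, ran from 1.0 to 1.64 (median 1.32) and from 1.35 to 1.67 (median 1.47). No knockout mouse was under the Tln2-null mean, but the difference of 0.17 had an adjusted exact permutation p of 0.353. The 2 collagen V partners kept close, with Col5a1 over Col5a2 at -0.06 ± 0.19 in Tln2-null and -0.13 ± 0.26 in knockout mice (adjusted exact permutation p 0.742).

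**Figure D3:**
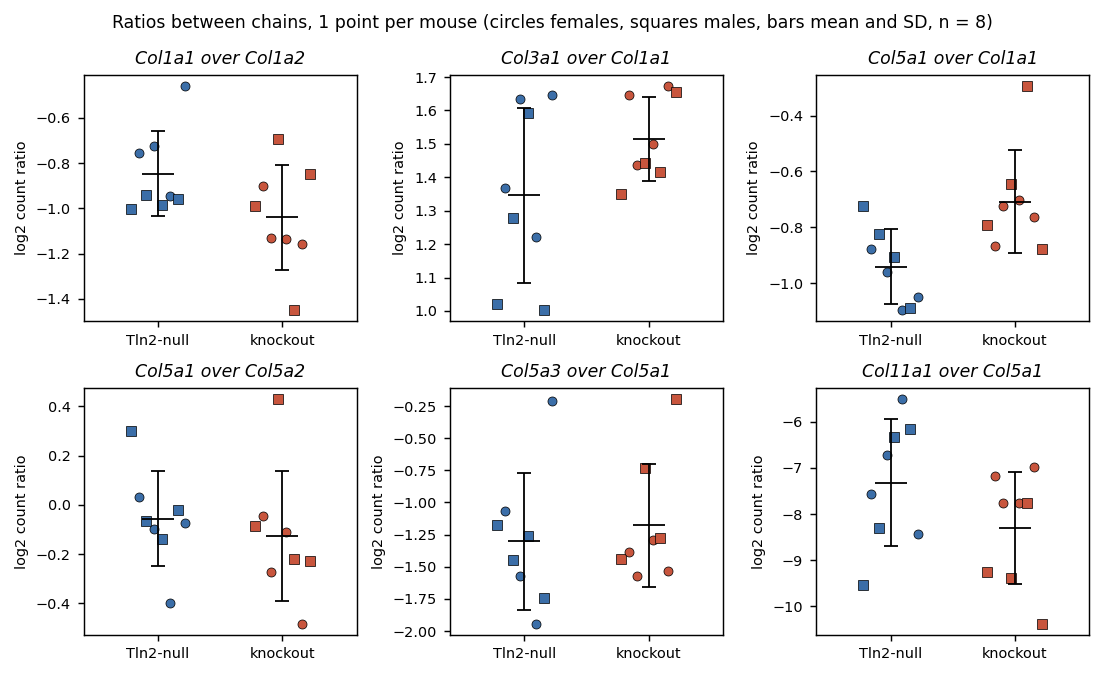
Log2 ratio of counts (y axis) between 6 pairs of chains in every mouse, with circles for females, squares for males, and the mean and SD of each group of 8. In the panel of Col5a1 over Col1a1 all 8 knockout mice lie above the Tln2-null mean of -0.94, and the single knockout mouse at -0.29 is replicate 6.

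From mouse to mouse, 5 chains varied together. For the 10 pairs among Col1a1, Col1a2, Col3a1, Col5a1 and Col5a2, Pearson's r of log2 CPM over 16 mice was 0.839 to 0.965 and Spearman's rho 0.759 to 0.971. The permutation p for r was 1e-05 to 8e-05, the former being the smallest that 100000 resamples can give, and 4.2e-05 to 0.000168 after adjustment over 21 pairs. For rho the permutation p was 1e-05 to 0.0012, or 7.9e-05 to 0.00252 adjusted. Without the 2 mice farthest from the median, r was 0.707 to 0.949. It was 0.661 to 0.956 among the 8 Tln2-null mice, 0.813 to 0.981 among the 8 knockout mice, and 0.773 to 0.955 with the Y-linked females left out. The closest pair was Col1a1 with Col5a1. The genomic neighbours Col3a1 and Col5a2 had r = 0.900, within the range of the other pairs.

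**Figure D4:**
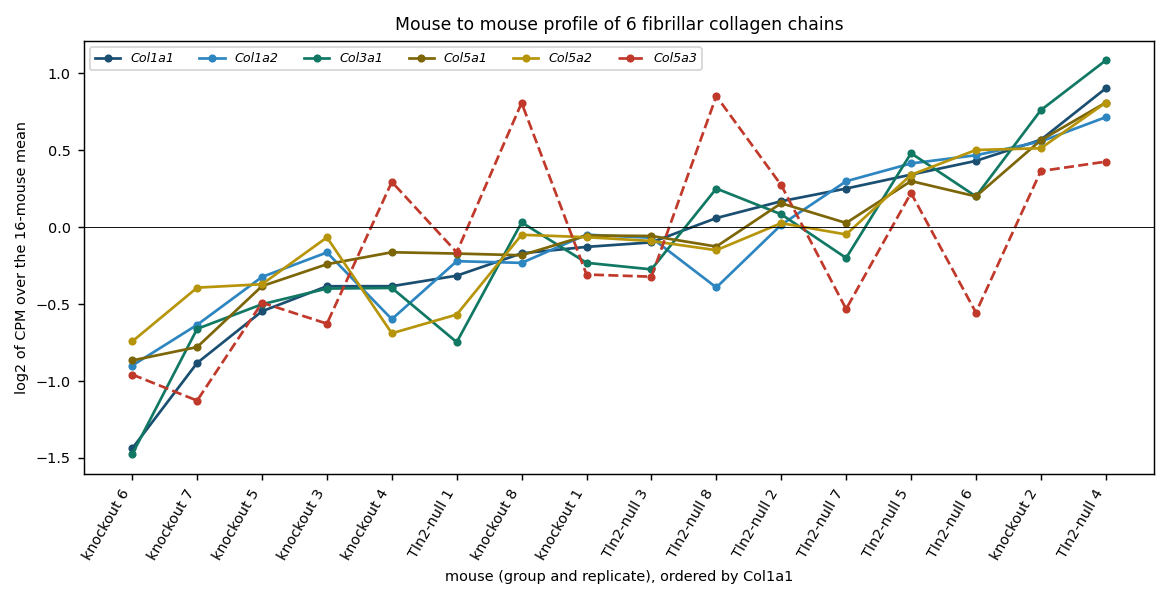
Log2 of CPM over the 16-mouse mean (y axis) of 6 chains in each mouse (x axis), ordered by Col1a1. The lines of 5 chains run together from knockout replicate 6 at the left to Tln2-null replicate 4 at the right, while the dashed line of Col5a3 peaks in replicate 8 of each genotype.

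Col5a3 followed the others less closely. Its r with the 5 chains was 0.308 to 0.667 (rho 0.247 to 0.653; permutation p for r 0.0039 to 0.245, adjusted 0.0063 to 0.257, and for rho 0.0072 to 0.355, adjusted 0.0116 to 0.373). Among the 8 Tln2-null mice alone it was -0.244 to 0.517, and among the 8 knockout mice 0.445 to 0.722. Without both libraries whose clock genes stand apart, which are also the 2 mice farthest from its median, it was 0.476 to 0.813, and 0.0421 to 0.612 with the Y-linked females left out. Its r with the clock gene Arntl, looked at after the values were seen, was 0.859 over 16 mice and 0.864 without those libraries. For the 6 other chains r with Arntl was -0.253 to 0.455, and 0.26 to 0.686 without those libraries. The part of the clock genes in the level of Col5a3 was not tested.

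Col11a1 correlated with these 5 chains at r = 0.564 to 0.763 (rho 0.568 to 0.721; permutation p for r 0.00073 to 0.0218, adjusted 0.00139 to 0.0254, and for rho 0.0022 to 0.0247, adjusted 0.0042 to 0.0324), on counts of 0 to 29. Without the 2 mice farthest from the median r was 0.442 to 0.663. Among the 8 knockout mice, all but 1 of which had 4 counts or fewer, r was 0.25 to 0.459, and among the 8 Tln2-null mice 0.627 to 0.913. Col11a1 and Col5a3 did not go together (r = -0.11, rho = -0.174; permutation p 0.681 and 0.519, adjusted 0.681 and 0.519).

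The genes most like each chain over the 16 mice, out of 12004 at a mean of 2 CPM or more, are given as descriptions. Col1a1 was nearest to Loxl1, a lysyl oxidase that crosslinks matrix (r = 0.941), Adamts2, the enzyme that removes the amino-terminal propeptide of fibrillar procollagens (0.935), and Col6a1, a chain of the beaded-filament collagen VI (0.93). Col1a2 was nearest to Tnc, the matrix glycoprotein tenascin C (0.967), the gelatinase gene Mmp2 (0.946) and Mtmr11 (0.946). For Col3a1 they were Col15a1, a basement membrane collagen (0.924), Adamts2 (0.919) and Tmsb10, an actin-binding thymosin (0.919). For Col5a1 they were Adamts2 (0.945), Atp8b2 (0.938) and the intermediate filament gene Vim (0.927). Col5a2 was nearest to Fstl1, a secreted follistatin-like protein (0.976), Postn, the matricellular protein periostin (0.956), and Igfbp7 (0.937).

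The other 2 chains had other neighbours. Col5a3 was nearest to Clmp, a cell adhesion molecule (r = 0.89), and the tetraspanin gene Tspan18 (0.876). Col11a1 was nearest to Rpl3, a ribosomal protein (0.937), the thrombospondin gene Thbs4 (0.903) and Col12a1, a fibril-associated collagen (0.892), with the same caution on its counts. In the same order, r was 0.932, 0.982 and 0.971 among Tln2-null mice alone, and 0.886, 0.594 and 0.574 among knockout mice alone. Of these genes, Thbs4 was at -1.37 ± 0.45 and Col12a1 at -1.30 ± 0.44 between genotypes on the log2 scale (SE; edgeR adjusted p = 0.755 for both).

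The other genes of collagen making, taken from a list of 77 in 8 roles, were mostly lower in knockout mice too. Of 75 tested, 63 were below 0 (51.2 percent of all genes), 0 passed over all genes (0 percent), and 17 had an unadjusted p under 0.05, all of them lower, against 3.17 percent of all genes. Their median log2 fold change was -0.18, against 0.00 over all genes tested. With the 4 females carrying Y-linked reads left out, 52 of 75 were below 0, with a median of -0.08, and 6 were lower and 1 higher at an unadjusted p under 0.05 (3.34 percent of all genes either way). Without both libraries whose clock genes stand apart 61 were below 0, with a median of -0.20, and 28 were lower and 0 higher at that threshold (6.63 percent of all genes either way).

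Among the remaining fibrillar collagens, Col27a1 was at 13.1 ± 3.40 against 8.45 ± 1.65 CPM (log2 -0.63 ± 0.14; edgeR adjusted p = 0.251), and Col11a2, the partner of Col11a1 in collagen XI, at 4.83 ± 1.70 against 4.12 ± 0.73 CPM. Col2a1 and Col24a1 were too low to be tested, at means of 0.114 CPM or below.

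Genes acting inside the cell had the median nearest 0. Of 17 hydroxylases and chaperones 13 were below 0 (51.2 percent of all genes), with a median of -0.04. At an unadjusted p under 0.05 there was 1 (3.17 percent of all genes, lower), P3h3, named for that (-0.40 ± 0.10). A count of 1 in 17 is not read as more than that share. P4hb, a subunit of prolyl 4-hydroxylase, was at 300.0 ± 16.6 against 292 ± 15.1 CPM, and Serpinh1, the collagen chaperone HSP47, at 293 ± 65.2 against 259 ± 40.7 CPM. Of the 7 genes of propeptide cleavage 6 were below 0 (51.2 percent of all genes), with a median of -0.15. There was 1 at an unadjusted p under 0.05 (3.17 percent of all genes, lower). Pcolce, which enhances the procollagen C-proteinase, was at 86.7 ± 15.5 against 74.8 ± 12.6 CPM, and Bmp1, that proteinase, at 65.0 ± 7.09 against 58.5 ± 8.79 CPM.

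The lysyl oxidases, which crosslink collagen, were the role with the lowest median. All 5 were below 0 (51.2 percent of all genes), with a median of -0.53, and 4 had an unadjusted p under 0.05 (3.17 percent of all genes, lower). Loxl1 was at 67.1 ± 15.02 against 46.4 ± 12.1 CPM (log2 -0.53 ± 0.16; edgeR adjusted p = 0.664) and Loxl2 at 41.5 ± 9.75 against 33.2 ± 5.74 CPM (-0.31 ± 0.12; adjusted p = 0.916). The other two, named after their values were seen, were Lox at -1.11 ± 0.27 (adjusted p = 0.375) and Loxl3 at -0.71 ± 0.23 (adjusted p = 0.755).

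Of 11 fibril assembly partners 11 were below 0 (51.2 percent of all genes), with a median of -0.28 and 4 at an unadjusted p under 0.05 (3.17 percent of all genes, lower). Dcn, the small proteoglycan decorin that coats fibrils, was at 726 ± 115 against 631 ± 73.6 CPM, and Sparc, a collagen-binding matricellular protein, at 584 ± 143 against 505 ± 132 CPM. Of 8 collagen receptors 6 were below 0 (51.2 percent of all genes), with a median of -0.12. There was 1 at an unadjusted p under 0.05 (3.17 percent of all genes, lower). The integrin genes Itgb1 and Itga1, whose products bind collagen and signal through talin, were at 603 ± 28.7 against 613 ± 25.6 CPM and 53.3 ± 7.22 against 55.4 ± 7.56 CPM.

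Among 9 genes of collagenolysis 7 were below 0 (51.2 percent of all genes), with a median of -0.32 and 3 at an unadjusted p under 0.05 (3.17 percent of all genes, lower). Timp3, an inhibitor of metalloproteinases, was at 416 ± 83.3 against 426 ± 71.6 CPM, and Timp2 at 174 ± 29.0 against 148 ± 22.7 CPM. Of 16 upstream signals and regulators 13 were below 0 (51.2 percent of all genes), with a median of -0.12. Ctgf (listed as Ccn2), a secreted factor raised by TGF-beta, was at 215 ± 136 against 175 ± 77.6 CPM, and the transcription factor gene Srf at 176 ± 19.6 against 168 ± 24.2 CPM. The 2 of this role at an unadjusted p under 0.05 (3.17 percent of all genes, lower), named for that, were the ligand genes Tgfb2 (-0.38 ± 0.13) and Tgfb3 (-0.45 ± 0.14).

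**Figure D5:**
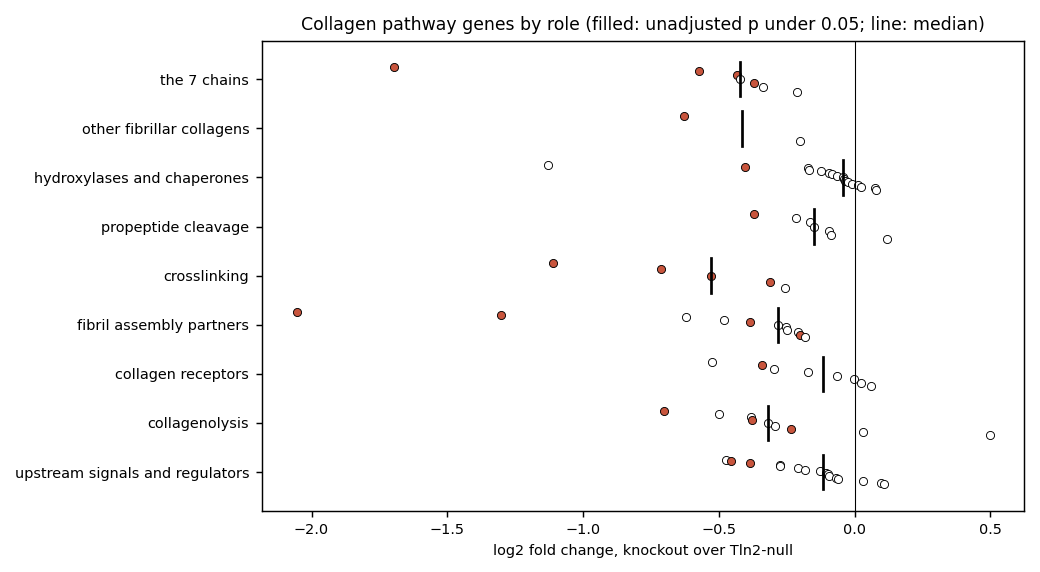
Log2 fold change of knockout over Tln2-null mice (x axis) for the 7 chains and the tested genes of each role of collagen making (y axis), with filled points at an unadjusted p under 0.05 and a line at each median. The medians run from -0.53 for crosslinking to -0.04 for hydroxylases and chaperones, and no filled point lies above 0.

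Markers of fibroblasts were mostly lower beside the chains. The 10 fibroblast markers summed to 2047 to 2837 CPM (mean 2469 ± 294) in Tln2-null and 1633 to 2584 CPM (mean 2039 ± 344) in knockout mice. Of the 10, 8 were lower (51.2 percent of all genes) and 6 were at an unadjusted p under 0.05 (5.08 percent of all genes either way). Gsn made up most of that sum, at 1350 ± 195 against 1094 ± 166 CPM, and Lamc1 was at 320 ± 41.7 against 302 ± 49.7 CPM. The higher markers, named for that, were Ly6a (133 ± 13.6 against 141 ± 25.25 CPM) and Scara5 (28.6 ± 11.2 against 31.2 ± 7.33 CPM). The 5 myofibroblast markers summed to 334 to 700 CPM against 255 to 675 CPM, all 5 lower, while 51.2 percent of all genes were lower. The 7 markers of valve and cartilage summed to 5.87 to 102 CPM against 5.16 to 34.7 CPM, with 4 of 4 tested lower (51.2 percent of all genes). Comp, a cartilage matrix protein gene, made up most of that sum, at 33.2 ± 31.0 against 9.23 ± 8.92 CPM, and the other 6 were at means of 2.56 CPM or below. Col15a1, Tnc and Postn stand both in these lists and among the nearest genes above, and the collagens themselves are fibroblast genes.

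Markers of other cells were mixed in direction, while 51.2 percent of all genes were lower. Of the 6 cardiomyocyte markers 0 were lower, the sum being 36760 ± 1120 against 38490 ± 1986 CPM. Endothelial markers summed to 1022 ± 81.5 against 1035 ± 107 CPM, with 3 of 5 lower, and macrophage markers to 182 ± 14.95 against 182 ± 18.7 CPM, with 1 of 5 lower. Of the 7 markers of smooth muscle and pericytes 4 were lower (51.2 percent of all genes), with sums of 1607 ± 143 against 1703 ± 77.4 CPM. At an unadjusted p under 0.05 there were 2 of the lower and 2 of the higher ones (5.08 percent of all genes either way). Schwann cell markers were lower for 2 of 3 tested, lymphocyte markers for 1 of 3, atrial markers for 2 of 2 and epicardial markers for 0 of 1. No listed marker was at 0 in all 16 mice. The part of the amount of fibroblasts in the level of the chains was not tested.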

How the data were processed

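The authors deposited a table of raw counts per gene symbol and a table of normalized signal; that signal is the counts divided by 1 size factor per library (whole reads recovered: 100 percent of values whole within 0.001). DRAGEN, DESeq2 and mm10 stand in the submitters' processing notes without roles or versions, and no source used here names the annotation. Per the labels' protocols, libraries were made with a directional kit.

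Counts were fitted for all genes with edgeR 4.0.16 (R 4.3.3): filterByExpr by genotype and sex, TMM, and quasi-likelihood tests with genotype and sex, or with 1 mean for each genotype and sex. The Benjamini-Hochberg threshold was 0.05. edgeR on the recovered reads, an alternative chosen after seeing the data, called 0 genes by genotype and 12 by sex, as on the counts. These reads are the same counts given back, so the match was fixed in advance and is no separate check. Scripts were tested on simulated data. CPM use TMM library sizes; correlations use log2 CPM with a prior count of 2, and ratios add 0.5 to each count. SEs are worked back from the F statistic. Alternatives used DESeq2 1.42.0 and limma 3.58.1; permutations used Python 3.11.15 and numpy 2.4.6. Lengths are from GENCODE M21, promoters from RefSeq.

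Groups and sexes are the labels'; replicates were numbered in record order. The members, gene lists and tests were chosen with earlier results of these data known. Named genes are the 7 chains, the 2 most abundant genes of each role, any that passed, and for each chain the 3 genes of highest Pearson's r, of which 1 is not reported here; others are marked as named after their values were seen. The depth of 11161766 to 19221673 counts per library limits Col11a1 above all.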

Additional observations from a re-analysis of the deposited data

Results flagged for a closer look

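In each genotype, the 8 mice were examined for a highest or lowest mouse far from the rest, for the 7 chains and the 21 ratios. Of 56 groups 7 had one. Chance alone flags about 1 group in 20 if values are normally spread, which was not tested here. The 7 of 56 lie above that rate, but the groups are not independent. Whether 7 is an excess was not tested. Of these, 4 were knockout replicate 2, at the top of its genotype with 338 CPM of Col1a2, 99.1 CPM of Col5a1, 102 CPM of Col5a2 and 0.656 CPM of Col11a1, the last on 13 counts. In the Tln2-null group, replicate 4 was far above the rest for Col5a1, at 117 CPM. The ratios gave the other two. Col5a1 over Col1a1 was highest in knockout replicate 6, at -0.293 on the log2 scale, the mouse with least Col1a1. Col5a1 over Col1a2 was highest in knockout replicate 4, at -1.34. The chains share each library, so these are not independent of one another.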

How the results depend on the processing

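By genotype, 0 genes passed in edgeR, 1 without a low-count filter, 17 in DESeq2, 11 in limma-voom with quality weights, 5 without both clock libraries, and 0 to 7 with 1 library left out (1 without Tln2-null replicate 4, 3 without Tln2-null replicate 1, 7 without knockout replicate 8). None was a chain in any of these. Within females DESeq2 called 2 genes, and leaving out 1 library 0 to 1. Between sexes 12 passed, 21 in DESeq2 and 10 to 14 with 1 library left out. Of the ratios 0 passed, and 0 to 1 with 1 library left out: Col5a1 over Col1a1, at 0.27 without knockout replicate 8. Correlations called 18 of 21 pairs, and 15 to 19 under the alternatives.

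The signs that turned were all of values that did not pass, and the cause was not tested. Without the females with Y-linked reads, Col5a3 by genotype was at 0.22 and Col5a1 over Col5a2 at 0.0282. Within females, with 1 knockout mouse left, Col1a1 was at 0.34, Col1a2 at 0.48, Col3a1 at 0.58, Col5a1 at 0.48, Col5a2 at 0.36 and Col5a3 at 0.0676. The dependence on sex was then 0.85 for Col1a1, 0.88 for Col3a1, 0.80 for Col5a1 and 0.65 for Col5a2. With 1 library left out it ran from -0.49 to 0.0855 for Col1a1, -0.0762 to 0.39 for Col1a2, -0.67 to 0.0458 for Col3a1, -0.42 to 0.12 for Col5a1 and -0.31 to 0.11 for Col5a2. Col5a3 ran from -0.05996 to 0.51 within males (-0.0598 without both clock libraries) and from -0.11 to 0.21 between sexes.

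No paired analysis was possible because the labels give no replicate numbers shared between the genotypes; those used here follow record order.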
